A study of Homo sapiens with 21 samples.

Results

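Low-dose THZ531 was compared with its solvent in Hs578T, a human triple-negative breast cancer cell line of mesenchymal character that is grown as an established culture. THZ531 is a covalent inhibitor of CDK12 and CDK13. The comparison took the 3 libraries of cells given 0.1 μM THZ531 alone and the 3 libraries of cells given DMSO alone, which are 6 of the 21 libraries of the series. The libraries were chosen by these treatment labels, and every gene of the count table that passed a filter on low counts, 16036 of 28395, was a member. The rule for the libraries and the tested genes used no fold changes or p-values of the comparison. The samples and the gene lists described below were nevertheless chosen with earlier results of these data known. All cells were parental Hs578T cells without a transgene, and RNA was isolated 8 h after treatment. The 3 libraries of cells given 1 μM THZ531 alone served as the nearest comparison, and they share the DMSO libraries with the low dose. The labels only number the replicates, and the study describes its sequenced samples as coming from independent experiments.

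CDK12 and CDK13 pair with cyclin K and phosphorylate the C-terminal domain of RNA polymerase II. They are known for supporting transcription elongation through long genes, for preventing the use of early polyadenylation sites, and for sustaining the expression of DNA repair genes. Transcripts respond to loss of this activity at different rates, since an mRNA with a short half-life follows its synthesis closely and a stable one does not. Poly(A)-selected, unstranded libraries such as these report the steady-state RNA that carries a poly(A) tail.

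Library depth differed little. Total counts were 106023299 to 112229052 in DMSO and 105036702 to 106791643 with 0.1 μM THZ531, and log2 CPM (CPM are TMM-normalised counts expressed per fixed total) correlated at 0.992 to 0.998 among the DMSO libraries, 0.993 to 0.998 among the 0.1 μM libraries and 0.982 to 0.994 between both groups. The mesenchymal markers matched the label of a mesenchymal breast cancer line, and those of other cell types were mixed. VIM, encoding vimentin, had at least 754261 counts in each of the 6 libraries and SPARC at least 299611, while KRT19, CD3E and CDH5 had 0 counts and the epithelial CDH1 at most 29. Of the luminal markers, XBP1 and KRT18, which other cells also make, had at least 10461 and 9674 counts. The luminal ERBB2, KRT8, GATA3 and FOXA1 had at least 3755, 2260, 1968 and 461 counts, and the leukocyte marker CD68 at least 10740. The matrix gene FN1 varied more than the others, from 72144 to 233292 counts over the 6 libraries, and did not pass the test (edgeR's adjusted p = 0.498).

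At 0.1 μM, THZ531 left most of the transcriptome near its DMSO level. The median log2 fold change (log2 FC) of all tested genes was 0.0087, 5% of the genes lay below −0.77 and 5% above 0.39, and 13918 genes (86.8%) changed by less than 0.5 in either direction. With edgeR's quasi-likelihood test and Benjamini-Hochberg adjustment over all tested genes, 691 genes (4.31% of those tested) were lower and 286 (1.78%) higher at an adjusted p under 0.05. Falls made up 70.7% of the 977 called genes. This share was 81.8% after scaling to library size alone, 85.4% after scaling to mitochondrially encoded mRNAs and 58.0% with DESeq2. The falls were also larger, with a median log2 FC of −0.57 against 0.37 for the rises, and 272 of the falls and 209 of the rises were smaller than 0.5. All 3 treated libraries lay below all 3 DMSO libraries in 690 of the 691 lower genes and above them in all 286 higher genes. At an unadjusted p under 0.05 there were 3085 genes. With any 1 of the 6 libraries left out, 351 to 477 genes were lower and 114 to 156 higher. With the 6 libraries fitted alone, 1043 of 14962 tested genes were lower and 510 higher. List counts from that fit are to be read against these totals. Scaling to mitochondrially encoded mRNAs, of which there are 13, left 240 lower and 41 higher. Of the genes named here, CNNM3, RPRD1A, SYMPK, HNRNPDL, ATM, HUS1, ORC3, KLF4, JUNB, HES4, IFT80, KCNC4, KCNS3 and LINC01287 passed under every other setting except glmTreat but not under that scaling (edgeR's adjusted p 0.0514 to 0.39), with nearly the same log2 FC. CPM are shares of a library, and in bulk RNA fewer cells with a transcript and less of it per cell cannot be told apart.

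Few genes changed by more than 2-fold, and most of those were of low abundance. At a log2 FC beyond 1, 119 genes (0.742% of those tested) were lower and 23 (0.143%) higher, and 16 and 4 of them reached a mean log2 CPM of 1. Without DMSO replicate 2 or treated replicate 2, 72 and 79 were lower beyond 1, and without treated replicate 1, 15 were higher. A test against a log2 FC of 1 itself (edgeR's glmTreat) left 2 falls and no rise, TNFRSF10C and LINC01257. TNFRSF10C, a decoy receptor for the death ligand TRAIL that was chosen for description after its values were seen, went from 1.38, 1.43 and 1.47 CPM in DMSO to 0.346, 0.393 and 0.327 CPM, and it overlaps LOC254896 on the other strand. LINC01257, a long noncoding RNA (lncRNA), went from 2.63, 2.49 and 2.1 CPM to 0.551, 0.655 and 0.857 CPM. The share of genes called lower depended on abundance. It was 1.54% of the 2538 genes with a mean log2 CPM under −2, 9.19% at 0 to 2, 9.37% at 2 to 4, 3.10% at 4 to 6 and 0.16% of the 632 genes at 8 and over.

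**Figure D1:**
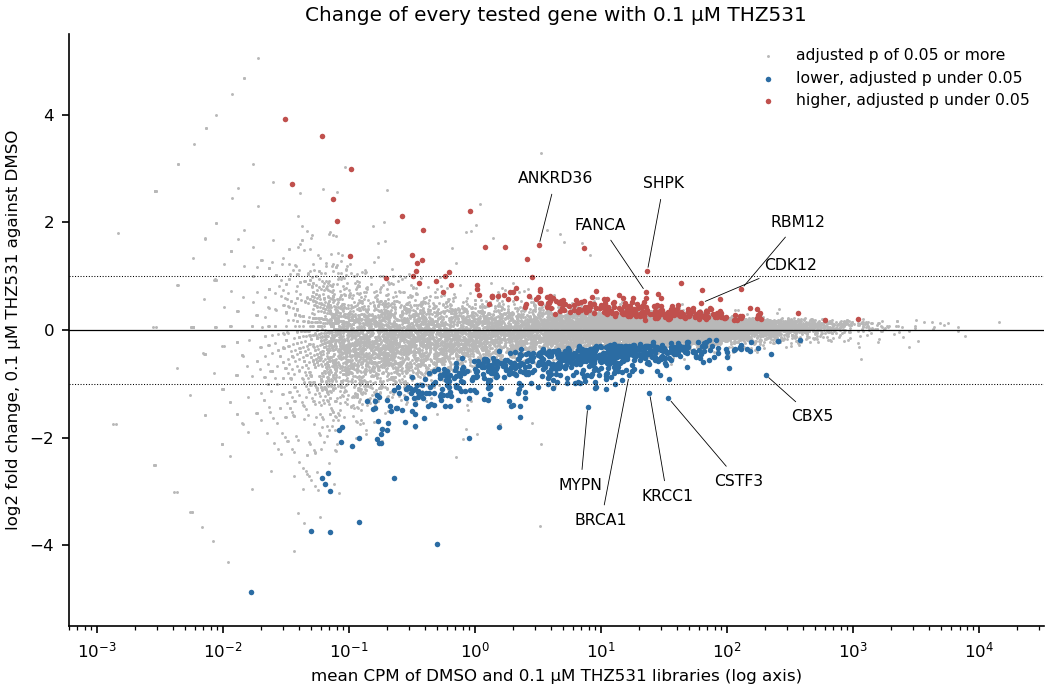
Each point is 1 of the tested genes, with the mean CPM of the 6 libraries on a log axis and the log2 FC of 0.1 μM THZ531 against DMSO; blue and red points passed an adjusted p under 0.05 and dotted lines mark a log2 FC of 1 and −1. Beyond the dotted lines lie 119 blue and 23 red points, most of them at low CPM, and at high abundance nearly all genes lie close to 0.

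Above a mean log2 CPM of 1, the largest falls were in genes of varied function. MYPN (chromosome 10, 68087897 to 68212017, GRCh38), which encodes the sarcomeric protein myopalladin, had 11.6, 12.2 and 10.6 CPM in DMSO and 4.05, 4.26 and 4.49 CPM with 0.1 μM THZ531. Its log2 FC was −1.42 (SE 0.12, edgeR's adjusted p = 8.7e-07). NRXN2, a presynaptic adhesion molecule, fell by 1.41 on the log2 scale (SE 0.14, edgeR's adjusted p = 5.29e-06). CSTF3 (chromosome 11, 33084584 to 33161480), which encodes a subunit of the cleavage stimulation factor that cuts pre-mRNA for polyadenylation, went from 49.8, 46.6 and 49 CPM to 22.1, 21.4 and 16.8 CPM. Its log2 FC of −1.27 (SE 0.084) had the smallest adjusted p of all named genes, 6.32e-08 by edgeR. Treated and DMSO libraries of these genes did not overlap, which was a condition for naming them.

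KRCC1 (chromosome 2, 88027205 to 88055783) went from 35.3, 30.5 and 35 CPM to 16.1, 15.7 and 13 CPM, a log2 FC of −1.17 (SE 0.11, edgeR's adjusted p = 1.81e-06). Its mean at 1 μM was 2.09 CPM, so the low dose sat between DMSO and the high dose. CBX5 (chromosome 12, 54230942 to 54280122), encoding the heterochromatin protein HP1α, was the most abundant of the genes named for their small p. It fell from 272, 264 and 244 CPM to 145, 148 and 143 CPM (log2 FC −0.84, SE 0.065, edgeR's adjusted p = 2.85e-07). PSCA, which encodes a surface antigen anchored to the membrane by a lipid, fell by 1.09 on the log2 scale, and KLHL22, a substrate adaptor of a cullin ubiquitin ligase, fell by 1.06. HECW1, a HECT-type ubiquitin ligase whose gene overlaps LUARIS on the other strand, fell by 1.08. RIBC2, a protein inside the microtubule doublets of cilia, fell by 1.10 and the monocarboxylate transporter family gene SLC16A13 by 1.08. The zinc-finger gene ZNF546, the lncRNA VESTAR and the pseudogene CUTALP fell by 1.01, 1.03 and 1.26. Of the 15 largest falls, NCBI genes 79686 (log2 FC −1.17) and 103611081 (−1.07) had no name in the RefSeq table. By p alone, ERMAP, an erythroid membrane protein whose gene overlaps SVBP on the other strand, and APOLD1, an early response gene of endothelium, joined the list with log2 FCs of −0.97 and −0.99. PBX2, a homeodomain partner of HOX proteins, fell by 1.15 but did not pass without any 1 of the 6 libraries (edgeR's adjusted p 0.0672 to 0.142).

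The largest rises were smaller in number. ANKRD36 (chromosome 2, 97113153 to 97264521) rose from 1.44, 1.68 and 1.74 CPM to 4.86, 4.48 and 5.09 CPM, a log2 FC of 1.57 (SE 0.12, edgeR's adjusted p = 2.85e-07), and its near-identical paralog ANKRD36B rose by 1.32. The paralogs can share reads, so their changes are not separate measurements. SHPK (chromosome 17, 3608240 to 3636250), encoding the sedoheptulose kinase of the pentose phosphate pathway, had 14.4, 14.8 and 15.5 CPM in DMSO and 32.6, 31.1 and 31.3 CPM with the low dose. Its log2 FC was 1.08 (SE 0.11, edgeR's adjusted p = 9e-06), and it overlaps TRPV1 on the same strand. RBM12 (chromosome 20, 35648925 to 35664900), an RNA-binding protein whose gene overlaps CPNE1 on the same strand, rose from 98.6, 89.8 and 102 CPM to 168, 164 and 157 CPM, a log2 FC of 0.75 (SE 0.090, edgeR's adjusted p = 4.58e-05). The treated and control libraries of these genes did not overlap, as the rule for naming them required.

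The other rises were in single genes of varied function. MAP3K8, the kinase TPL2 that activates MEK, had a log2 FC of 0.99, the formin-binding FNBP4 one of 0.88 and KMT5B, which methylates lysine 20 of histone H4, one of 0.73. ARMC5, SLC35E4 and LINC00630 rose by 0.64, 0.67 and 0.78, and the endosomal WDFY1, the zinc transporter SLC30A3, LARP1B and CNNM3 were added for their small p with 0.58, 0.52, 0.59 and 0.47. ITPK1, an inositol phosphate kinase, stood apart. It had 3.67, 3.93 and 3.77 CPM in DMSO and 14.1, 4.55 and 14.2 CPM with 0.1 μM THZ531, so that replicate 2 was close to the controls. Its log2 FC of 1.53 passed without replicate 2 (1.90) but not without treated replicate 1 or 3 (1.31 and 1.30) or without any 1 DMSO library (1.51 to 1.56). ACER2, a ceramidase of the Golgi, rose by 0.73 but did not pass without treated replicate 1 (0.67, edgeR's adjusted p = 0.0567). TRIM13, a ubiquitin ligase of the endoplasmic reticulum that overlaps DLEU2 and KCNRG, rose by 0.72 but did not pass without DMSO replicate 2 (0.64, edgeR's adjusted p = 0.0508).

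**Figure D2:**
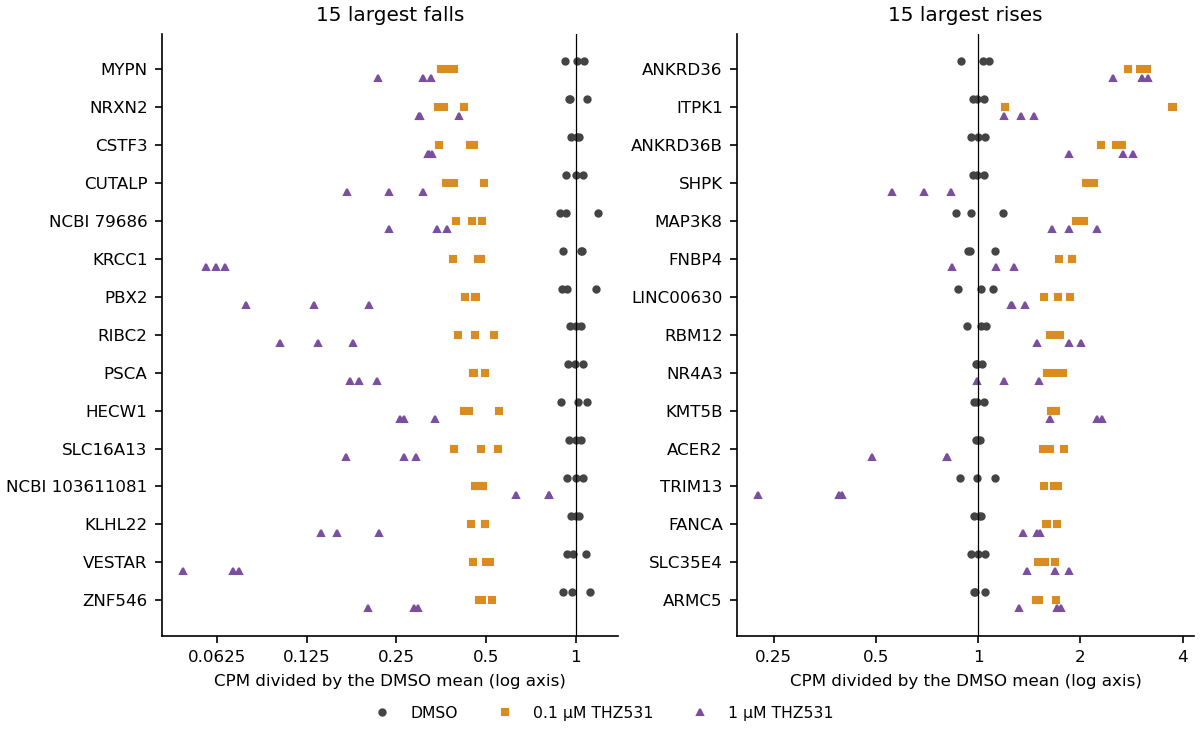
The CPM of each library divided by the gene's DMSO mean, on a log axis, for the 15 largest falls and 15 largest rises at 0.1 μM; circles are DMSO, squares 0.1 μM and triangles 1 μM THZ531, with 3 libraries each. The squares and circles of each gene do not overlap, as the naming rule required, and for SHPK, ACER2 and TRIM13 the triangles lie on the other side of the DMSO mean.

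Of the target kinases, CDK12 passed the test and CDK13 did not, and the difference between them was not tested. CDK12 (chromosome 17, 39461486 to 39567559) had 48.8, 57.5 and 49.3 CPM in DMSO and 66.3, 74.7 and 78.9 CPM with 0.1 μM THZ531, a log2 FC of 0.50 (SE 0.14, edgeR's adjusted p = 0.0393). At 1 μM it had 29.6, 21.1 and 25.3 CPM, so the groups did not overlap and the low dose was highest. The rise was close to the threshold, since it did not pass without any 1 of the 6 libraries (log2 FC 0.44 to 0.58, edgeR's adjusted p 0.0524 to 0.139). CDK13, its paralog, had 66.6, 73.5 and 65.8 CPM in DMSO and 75.5, 77.3 and 83.2 CPM with the low dose, which did not pass (log2 FC 0.20, edgeR's adjusted p = 0.572). CCNK, encoding cyclin K, had a log2 FC of −0.01 (edgeR's adjusted p = 0.963) with overlapping groups, and overlaps SETD3 and CCDC85C on the other strand. HEXIM1, an inhibitor of the elongation kinase P-TEFb, had 23.9, 25.5 and 24.1 CPM in DMSO and 31.4, 33.5 and 34.1 CPM with the low dose. Its log2 FC of 0.43 (SE 0.24) did not pass (edgeR's adjusted p = 0.336) in the fit of all 21 libraries but did when the 6 libraries were fitted alone (edgeR's adjusted p = 0.00373). Of the 27 tested transcriptional kinases, cyclins and P-TEFb regulators, CDK12 alone passed (3.70% higher, against 1.78% of all genes). With the 6 libraries fitted alone 3 were higher and 1 lower, where 510 and 1043 of all 14962 tested genes were. ABCG2, an efflux transporter of many drugs, had a log2 FC of 0.12 (SE 0.12, edgeR's adjusted p = 0.617) with overlapping groups.

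A small group of genes that form the 3′ ends of mRNA fell. Of 24 tested cleavage, polyadenylation and termination genes, 3 fell (12.5%) and none rose, beside 4.31% and 1.78% over all genes. The list's median log2 FC was −0.03. With the 6 libraries fitted alone, 5 were lower and none higher, where 1043 and 510 of all 14962 tested genes were. Besides CSTF3, the scaffold SYMPK had 62.9, 82.8 and 69.9 CPM in DMSO and 46.6, 50 and 54 CPM with the low dose (log2 FC −0.52, SE 0.095, edgeR's adjusted p = 0.00258). CPSF2, a subunit of the complex that recognises the polyadenylation signal, fell by 0.34 and did not pass without DMSO replicate 1 or 3 or treated replicate 2 or 3 (edgeR's adjusted p up to 0.0959). Among 25 elongation factors, the phosphatases and scaffolds that act on the polymerase tail gave the 2 called falls (8%, against 4.31% of all genes). RPRD1A fell by 0.56 (edgeR's adjusted p = 0.0026), and SSU72 by 0.38, which did not pass without DMSO replicate 3 or treated replicate 1 or 2 (edgeR's adjusted p up to 0.069). Of 36 SR proteins, hnRNPs and splicing kinases, 1 was lower (HNRNPDL, −0.33) and 1 higher (SRSF6, 0.31), 2.78% each way. SRSF6 did not pass without DMSO replicate 2 or treated replicate 1 (edgeR's adjusted p up to 0.0698).

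The DNA repair genes, the class for which CDK12 is best known, had medians near 0 at this dose, and 9.09%, 14.3% and 8.89% of the following lists were lower, against 4.31% of all genes. Of 33 homologous recombination and Fanconi anemia genes, 3 were lower and 1 higher with a median log2 FC of 0.0007, of 21 checkpoint genes 3 were lower and 1 higher with a median of −0.03, and of 45 excision, mismatch and end-joining genes 4 were lower and 1 higher with a median of −0.04. With the 6 libraries fitted alone, 6 of the recombination genes and 7 of the excision group were lower. That fit called 1043 of all 14962 tested genes lower, a larger share than the 4.31% above. BRCA1 (chromosome 17, 43044295 to 43170327), central to recombination repair, showed the largest of these falls. It had 20.4, 23.3 and 20.7 CPM in DMSO and 11.6, 11.4 and 13 CPM with 0.1 μM THZ531, a log2 FC of −0.84 (SE 0.12, edgeR's adjusted p = 0.000244). Its value at 1 μM was 11.7, 13.6 and 9.26 CPM, and the direct difference between both doses was −0.06 (SE 0.14, edgeR's adjusted p = 0.683). BRCA1 overlaps NBR2 on the other strand and LOC101929767 on the same strand, and reads of these genes cannot be told apart.

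FANCA (chromosome 16, 89737549 to 89816647), a member of the Fanconi anemia core complex, moved the other way. It rose from 16.8, 17.5 and 17.4 CPM to 27.4, 27.4 and 29.3 CPM (log2 FC 0.70, SE 0.064, edgeR's adjusted p = 2.06e-06), and it overlaps ZNF276 on the other strand. ERCC4, the XPF nuclease subunit, fell from 17.7, 16.1 and 17.4 CPM to 10.9, 11.1 and 11.2 CPM at the low dose (log2 FC −0.62, edgeR's adjusted p = 0.00221), against a mean of 1.49 CPM at 1 μM. PMS1, of the mismatch repair MutL family, fell by 0.58 (edgeR's adjusted p = 0.00146). ATM, the kinase that senses double-strand breaks, fell from 62.4, 63.6 and 58.1 CPM to 48.3, 45.3 and 45.3 CPM (log2 FC −0.41, edgeR's adjusted p = 0.00153). It overlaps C11orf65 on the other strand. At 1 μM it had 98.5, 87.7 and 81.5 CPM, above DMSO on the TMM scale, and the doses differed by 0.95 (edgeR's adjusted p = 4.12e-10). HUS1, a subunit of the checkpoint clamp, rose by 0.45 (edgeR's adjusted p = 0.00268).

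The remaining repair calls did not pass in some or all of the fits that left out a library. RAD50, the scaffold of the MRN complex, fell by 0.50 but did not pass without DMSO replicate 1 or 2 or treated replicate 1 or 2 (edgeR's adjusted p up to 0.128). FANCD2 (−0.25), a central protein of crosslink repair, and ATRIP (−0.31), the partner of ATR whose gene overlaps TREX1, did not pass without any 1 of the 6 libraries (edgeR's adjusted p 0.0628 to 0.106 and 0.08 to 0.149). The checkpoint kinase ATR (−0.25), the glycosylase MUTYH (−0.55, overlapping TOE1), the damage sensor XPC (−0.34) and the end-joining factor NHEJ1 (0.30) did not pass in 4, 5, 5 and 5 of the 6 fits that left out a library, with edgeR's adjusted p up to 0.103, 0.0793, 0.18 and 0.0812. ATR passed without DMSO replicate 2 or 3, MUTYH without DMSO replicate 1, XPC without treated replicate 3 and NHEJ1 without DMSO replicate 3. Of 39 DNA replication genes 2 were lower (5.13%, against 4.31% of all genes) and none higher. ORC3, a subunit of the origin recognition complex, fell by 0.54 and GINS1, of the replicative helicase, by 0.42. With the 6 libraries fitted alone, 6 of the replication genes were lower and 2 higher, where 1043 and 510 of all 14962 tested genes were. GINS1 did not pass without any 1 of the 6 libraries (edgeR's adjusted p up to 0.108).

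**Figure D3:**
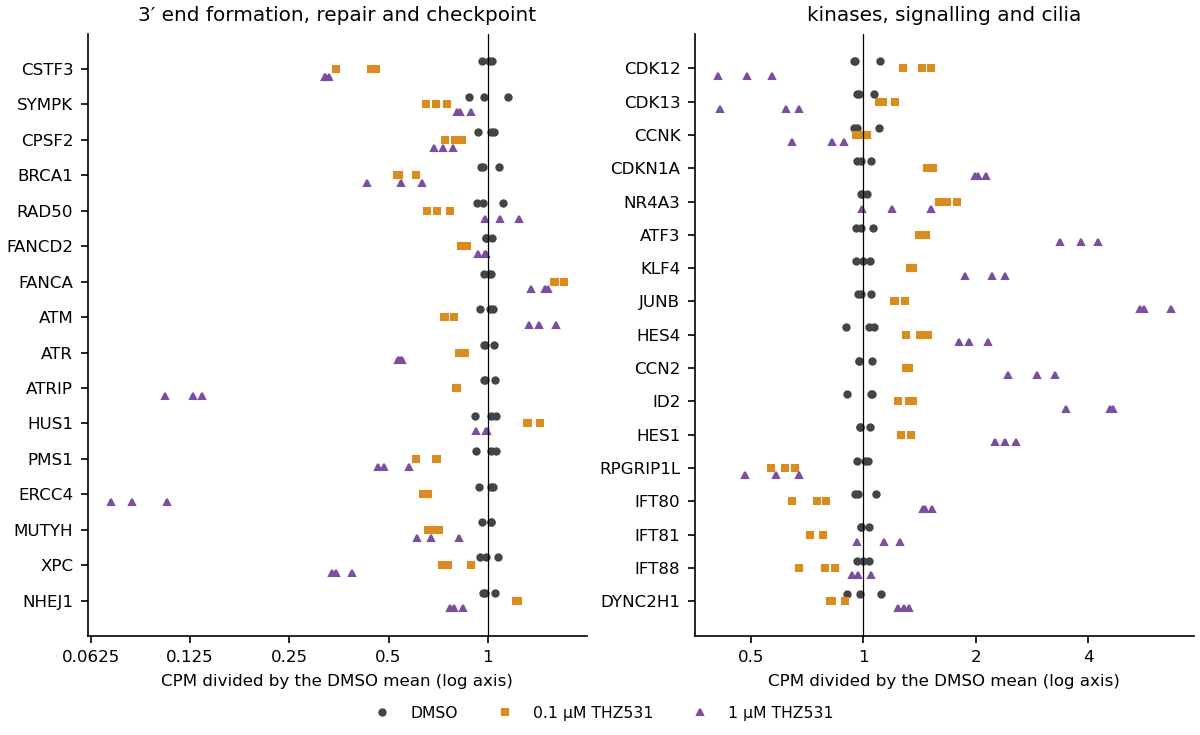
The CPM of each library divided by the gene's DMSO mean, on a log axis, for called members of the 3′ end and DNA repair lists (left) and for the kinases, called signalling genes and called ciliary genes (right), with symbols as for the largest changes. FANCA, HUS1 and NHEJ1 rose at 0.1 μM while the other repair genes fell, and CDK12 at 0.1 μM lies above DMSO whereas its 1 μM libraries lie below.

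The cell cycle lists held 1 call in each direction. That was 4.35% of the E2F and G1/S list and 3.85% of the mitotic list each way, against 4.31% lower and 1.78% higher over all genes. Of 23 E2F and G1/S regulators 1 rose, CDKN1A, the p53-responsive inhibitor p21, from 15.1, 14.2 and 13.8 CPM to 22, 21.3 and 21.6 CPM (log2 FC 0.59, SE 0.092, edgeR's adjusted p = 0.0007). It was the only called gene of 21 p53 targets (4.76% higher), whose median log2 FC was 0.16. With the 6 libraries fitted alone, 3 p53 targets were higher and 1 lower, where 510 and 1043 of all 14962 tested genes were. The E2F and G1/S regulator that fell was the pocket protein gene RBL1 (−0.31). It did not pass without DMSO replicate 1 or any 1 treated library (edgeR's adjusted p up to 0.0977). Of 26 mitotic genes 1 was lower (CDC20, −0.19) and 1 higher (CCNB2, 0.27), and neither held when libraries were left out, CDC20 in none of the 6 fits and CCNB2 only without DMSO replicate 3 (edgeR's adjusted p up to 0.159 and 0.185). BCL2L11 and BOK, which promote apoptosis, were the 2 called members of 17 BCL2 family genes (11.8% higher, against 1.78% of all genes). Their log2 FCs were 0.49 and 0.26, and neither passed without any 1 of the 6 libraries (edgeR's adjusted p up to 0.16 and 0.146). With the 6 libraries fitted alone, 2 BCL2 family genes were higher and 2 lower.

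Several signal-responsive transcription factors rose. Of 30 tested immediate-early genes, which growth factors and stress induce within minutes, 4 rose (13.3%, against 1.78% of all genes) and none fell, and 5 of the 30 log2 FCs were below 0 with a median of 0.17. NR4A3, an orphan nuclear receptor, went from 2.4, 2.5 and 2.42 CPM to 4.35, 3.9 and 4.1 CPM (log2 FC 0.75). KLF4, a zinc-finger factor, went from 17.3, 18.1 and 18.9 CPM to 24.2, 24.4 and 24.6 CPM (0.43), and JUNB, an AP-1 subunit, from 34.2, 37 and 34.9 CPM to 43, 42.8 and 45.6 CPM (0.31), and overlaps HOOK2 on the other strand. ATF3, a stress-induced bZIP factor, rose by 0.54. KLF4 and JUNB passed whichever library was left out, NR4A3 did not pass without DMSO replicate 1 or treated replicate 1 (edgeR's adjusted p = 0.0522 and 0.0596) and ATF3 not without any 1 of the 6 libraries (up to 0.121). After scaling to mitochondrially encoded mRNAs 1 of the 30 passed. At 1 μM the means of KLF4, JUNB and ATF3 were 39.2, 211 and 15 CPM, all above the low dose, while NR4A3 had a mean of 3.01 CPM against 4.12 CPM at the low dose.

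Among 28 targets of TGF-β, Hippo, Wnt and Notch signalling, 4 rose (14.3%, against 1.78% of all genes) and none fell. They were the Notch-responsive repressors HES4 (log2 FC 0.49) and HES1 (0.36), the matricellular CCN2 (0.40) and the differentiation inhibitor ID2 (0.39). CCN2 had 145, 158 and 146 CPM in DMSO and 197, 199 and 194 CPM with the low dose. HES4 passed whichever library was left out, CCN2 not without DMSO replicate 1 (edgeR's adjusted p = 0.0517), ID2 not without DMSO replicate 2 or treated replicate 1 (0.0747 and 0.0583) and HES1 only without DMSO replicate 2 (up to 0.0832). The list's median was 0.07. After scaling to mitochondrially encoded mRNAs none of the 28 passed.

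Ciliary genes fell in a small group. Of 38 tested genes of the BBSome, intraflagellar transport and the ciliary transition zone, 5 fell (13.2%, against 4.31% of all genes) and none rose, and 27 log2 FCs were below 0 with a median of −0.15. With any 1 library left out 2 to 4 of them passed. With the 6 libraries fitted alone 9 were lower, where 1043 of all 14962 tested genes were. RPGRIP1L, of the transition zone, went from 14.3, 14.6 and 13.5 CPM to 8.68, 9.27 and 7.98 CPM (log2 FC −0.71, SE 0.10, edgeR's adjusted p = 0.000299). IFT80, a subunit of the anterograde transport complex, went from 16.8, 14.8 and 15 CPM to 12.3, 11.6 and 10 CPM (−0.46, edgeR's adjusted p = 0.00653). IFT81 (−0.44), IFT88 (−0.39) and the retrograde motor DYNC2H1 (−0.25) had smaller changes, and did not pass in 3, 5 and 5 of the 6 fits that left out a library (edgeR's adjusted p up to 0.0568, 0.173 and 0.253). IFT81 failed without DMSO replicate 1 or treated replicate 1 or 2, IFT88 passed only without treated replicate 1 and DYNC2H1 only without DMSO replicate 3. At 1 μM IFT80 and DYNC2H1 were above DMSO, at means of 23 and 57.2 CPM on the TMM scale.

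Of 74 tested calcium, potassium and sodium channel genes 4 fell (5.41%) and 2 rose (2.70%), near the 4.31% and 1.78% of all genes, with a median of −0.19. The potassium channel gene KCNQ3 went from 19.9, 21.8 and 17.6 CPM to 11.6, 12.2 and 11.6 CPM (log2 FC −0.75, SE 0.090, edgeR's adjusted p = 4.61e-05). The potassium channel subunit KCNAB2 and the calcium channel CACNA1A fell by 0.64 and 0.56, and the potassium channels KCNC4 and KCNS3 rose by 0.43 and 0.42. The sodium channel SCN2A fell by 0.78 at 0.897 to 1.13 CPM in DMSO, and did not pass without DMSO replicate 1 or 3 or treated replicate 2 or 3 (edgeR's adjusted p up to 0.115). Of 30 synaptic and neuronal genes 3 fell (10%, against 4.31% of all genes) and 2 rose (6.67%, against 1.78%). The postsynaptic scaffold SHANK1 had a log2 FC of −0.86 and another scaffold, DLG2, one of 0.76. TUBB3, a neuronal β-tubulin, rose by 0.22 and did not pass without DMSO replicate 1 or treated replicate 3 (edgeR's adjusted p = 0.099 and 0.101). SNAP25 (−0.44), of the vesicle fusion machinery, did not pass without any 1 of the 6 libraries (edgeR's adjusted p up to 0.165).

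Among 71 tested chromatin regulators 5 fell (7.04%, against 4.31% of all genes) and 1 rose (1.41%, against 1.78%). KAT14, a histone acetyltransferase of the ATAC complex, went from 15.3, 16.1 and 16 CPM to 9.41, 9.89 and 9.97 CPM (log2 FC −0.70, SE 0.086, edgeR's adjusted p = 6.97e-05), against a mean of 1.07 CPM at 1 μM. It overlaps PET117 on the same strand. HDAC9, a class II deacetylase, fell by 0.53 (edgeR's adjusted p = 0.00411). PBRM1, KAT8, NSD1 and HDAC5 had log2 FCs of −0.30, −0.37, −0.35 and 0.27, and each failed in 4 of the 6 fits that left out a library (edgeR's adjusted p up to 0.0688, 0.155, 0.204 and 0.118). PBRM1 passed without DMSO replicate 3 or treated replicate 3, as did NSD1, KAT8 without DMSO replicate 1 or treated replicate 3 and HDAC5 without DMSO replicate 2 or treated replicate 1.

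Zinc-finger genes, a class of short-lived transcripts, had a median near 0 at this dose. Of 455 tested ZNF genes 30 were lower (6.59%, against 4.31% of all genes) and 5 higher (1.10%, against 1.78%), with a median log2 FC of −0.04. The 220 on chromosome 19, where most of this family is clustered, had 9 lower and a median of −0.03, and the 235 elsewhere 21 lower and −0.04. The median of all 455 at 1 μM was −1.50, and 372 were lower at 1 μM than at 0.1 μM, where 35.9% of all tested genes were lower and 34.3% higher. ZNF76 (log2 FC −0.74), ZNF747 (−0.80), ZNF324B (−0.64) and the pseudogenes ZNF252P (−0.65) and ZNF702P (−0.97) were the called members of smallest p beside ZNF546. With any 1 library left out, 12 to 20 of the 455 were lower. With the 6 libraries fitted alone 48 ZNF genes were lower, where 1043 of all 14962 tested genes were. At a log2 FC beyond 1, 17.6% of all tested genes were lower and 6.83% higher at 1 μM than at 0.1 μM. These counts depended on scaling, since the median difference between both doses moved by −0.55 after scaling to mitochondrially encoded mRNAs, by −0.22 with library size alone and by 0.23 with upper-quartile scaling, and changes at 1 μM are therefore given on the TMM scale, where a rise of less than 0.55 against DMSO depends on that choice.

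Several abundant housekeeping classes had no called member, against 4.31% lower and 1.78% higher over all genes. At a mean log2 CPM of 8 and over, only 0.16% of genes were lower and 0.47% higher, so few calls would fall among abundant genes. None of 84 cytosolic ribosomal protein genes passed, although 3 lay below 0 and the median log2 FC was 0.14, and none of 79 nuclear subunits of oxidative phosphorylation passed with a median of 0.13. Relative to the DMSO mean, the median ribosomal protein gene was at −0.02, −0.07 and 0.08 in the DMSO libraries and at 0.18, 0.14 and 0.09 with 0.1 μM THZ531, so the third treated and the third DMSO library nearly met. None of 43 extracellular matrix and mesenchymal genes passed, with 33 below 0 and a median of −0.14. Their median per library was −0.26, −0.14 and 0.04 with the low dose and −0.09, 0.14 and −0.06 in DMSO, which overlapped. The 13 mitochondrially encoded mRNAs (median −0.02) had none as well, nor had 34 proteasome subunits (0.09), 21 chaperones of the unfolded protein response (0.01), 15 heat shock genes (0.08), 27 genes of sterol and fatty acid synthesis (0.08), 21 inflammatory genes (0.05), 77 cadherins (−0.06), 147 snoRNA genes (0.03), 25 host genes of snoRNAs (0.06) or 49 microRNA precursor loci (0.21). With the 6 libraries fitted alone, 2 of the matrix and mesenchymal genes were lower. In that fit 1 oxidative phosphorylation subunit, 1 sterol or fatty acid synthesis gene and 1 mitochondrially encoded mRNA were higher. Small RNAs without a poly(A) tail are poorly captured by such libraries.

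The rest of the lists held 1 or 2 calls each in the fit of all 21 libraries, where 4.31% of all genes were lower and 1.78% higher. These are calls of single genes and not results about the lists. With the 6 libraries fitted alone, 5 of the ERK feedback genes were higher and 1 lower, where 510 and 1043 of all 14962 tested genes were. In that fit the mitochondrial ribosomal proteins had 4 higher and 1 lower, as did the HOX, FOX and SOX factors. Among 25 receptor tyrosine kinases and ligands FGF5 rose (0.41, 4% of the list), and among 18 ERK feedback genes SPRED3 fell (−0.60, 5.56%). Among 11 genes of the MYC and MAX network MXI1 rose (0.33, 9.09%), and among 34 ABC transporters ABCC10 rose (0.29, 2.94%). Of 17 clock genes DBP rose (0.34) and PER3 fell (−0.38), 5.88% each way. Of 70 HOX, FOX and SOX factors HOXA10 rose (0.33) and SOX30 fell (−1.31), 1.43% each way. SOX30 went from 0.927 to 1.21 CPM in DMSO to 0.349 to 0.513 CPM. MRPS27 fell (−0.20) among 76 mitochondrial ribosomal proteins (1.32%), and ATF3 was the 1 gene of 25 in the ATF4 response that passed (4%). H3C1 rose by 0.96 among 39 replication-dependent histones (2.56%) and RNVU1-6 by 1.37 among 27 spliceosomal snRNA genes (3.70%). All 6 libraries of both were under 0.31 CPM, however, and their families share reads. SOX30 passed whichever library was left out. FGF5, SPRED3, MXI1, ABCC10, DBP, PER3, HOXA10, MRPS27, ATF3, H3C1 and RNVU1-6 each failed in at least 4 of these 6 fits (edgeR's adjusted p up to 0.208). DBP, ABCC10 and HOXA10 overlap SPHK2, DLK2 and HOXA10-AS on the other strand, and ORC3, HDAC5, SHANK1, SNAP25 and ZNF324B overlap AKIRIN2, LOC105371789, C19orf81, SNAP25-AS1 and ZNF132 in the same way.

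**Figure D4:**
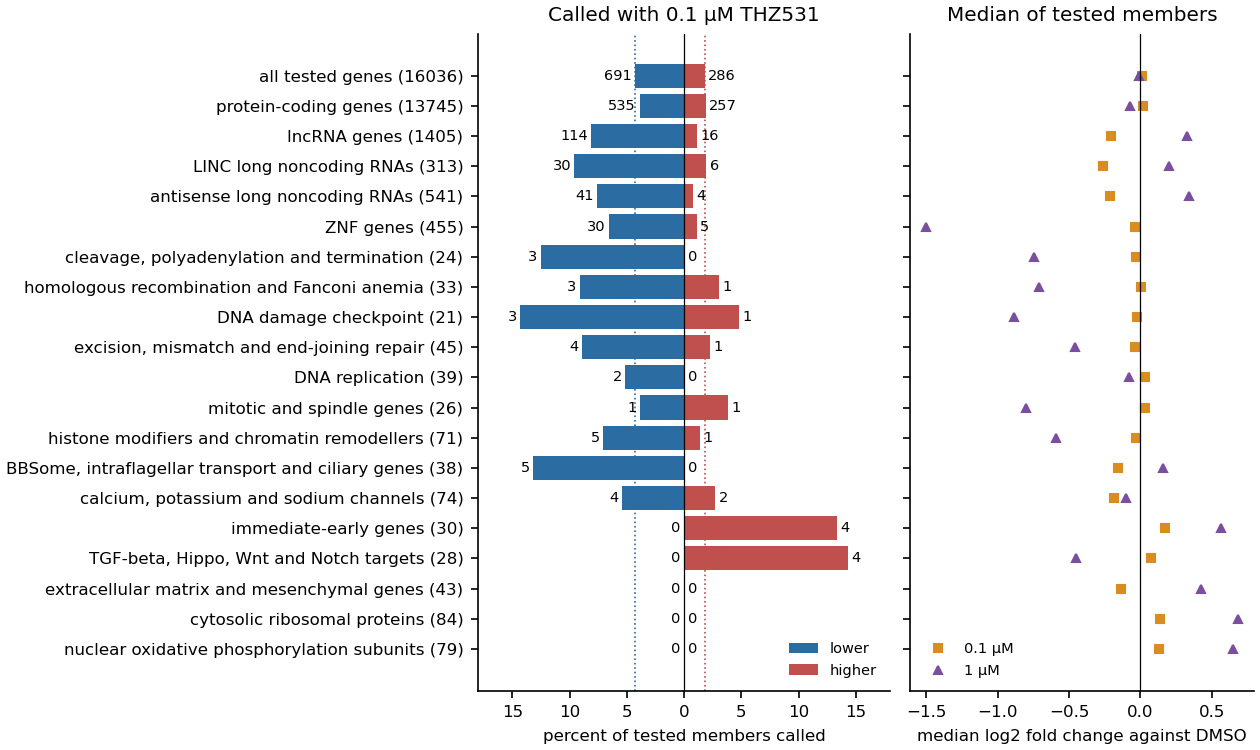
Left, the percent of tested members of each class called lower (blue) or higher (red) at 0.1 μM, with the number called beside each bar, the number tested in brackets and dotted lines at the percent over all genes; right, the median log2 FC of the tested members against DMSO at 0.1 μM (squares) and 1 μM (triangles). On the TMM scale lncRNA classes lie left of 0 at 0.1 μM and right of 0 at 1 μM, whereas the ZNF genes are near 0 at 0.1 μM and at −1.50 at 1 μM.

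Among the gene biotypes tested, long noncoding RNAs had the highest share of falls at this dose. Of 1405 tested lncRNA genes 114 (8.11%) were lower and 16 (1.14%) higher, against 535 (3.89%) and 257 (1.87%) of 13745 protein-coding genes, and 963 of the lncRNA log2 FCs were below 0 with a median of −0.21. LncRNAs are of lower abundance than mRNAs, and low-abundance genes of both kinds lay below 0. Under a mean log2 CPM of −2 the medians were both −0.27, and at −2 to 0 they were −0.24 for lncRNAs and −0.16 for coding genes. At 0 to 2, 38 of 230 lncRNAs (16.5%) and 92 of 1231 coding genes (7.47%) were lower. At 2 to 4 the counts were 31 of 111 (27.9%) and 207 of 2465 (8.4%), and at 4 to 6 they were 7 of 35 (20%) and 127 of 4292 (2.96%). Among genes of like abundance the share was therefore higher for lncRNAs than for coding genes at a mean log2 CPM of 0 to 6. Transcribed pseudogenes had a raised share as well, with 28 of 433 lower (6.47%). At a mean log2 CPM of 0 to 4, 13.4% of them were lower, against 20.2% of lncRNAs and 8.09% of coding genes. With any 1 library left out 58 to 78 lncRNAs were lower. These are descriptions without a test, since genes are not replicates.

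The summed lncRNA signal was lower in each treated library. It was 4213, 4176 and 4243 CPM in DMSO and 4062, 3986 and 3900 CPM with 0.1 μM THZ531, and the median lncRNA lay 0.16, 0.16 and 0.18 below the DMSO mean on the log2 scale. At 1 μM the sum was 4682, 4915 and 4790 CPM, above DMSO. This was not particular to lncRNAs, since TMM-scaled sums differ between groups. The protein-coding sum was 896370, 906280 and 904850 CPM in DMSO and 1074000, 1078600 and 1081500 CPM at 1 μM. The median log2 FC against DMSO at 1 μM was 0.33 for lncRNAs and −0.07 for coding genes. By this median the lncRNAs lay on different sides of DMSO at both doses on the TMM scale. Between the doses the median lncRNA was 0.52 higher at 1 μM on that scale and 0.02 lower after scaling to mitochondrially encoded mRNAs, where the median of all tested genes was 0.50 lower. Against DMSO at 0.1 μM the median lncRNA was below 0 under all 10 other settings and when any 1 library was left out, at −0.16 to −0.24.

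Antisense-named and LINC-named lncRNAs behaved much alike. Of 541 antisense genes 41 fell (7.58%) and 4 rose (0.74%), with a median of −0.22. Of 313 LINC genes 30 fell (9.58%) and 6 rose (1.92%), with a median of −0.26. Over all genes 4.31% were lower and 1.78% higher. With any 1 library left out the falls numbered 20 to 29 and 14 to 19. LINC01963 went from 9.49, 11.1 and 9.08 CPM to 5.18, 4.75 and 5.35 CPM (log2 FC −0.96, SE 0.095, edgeR's adjusted p = 5.29e-06), and its 1 μM mean was 8.71 CPM. LINC00963 and LINC01287 fell by 0.67 and 0.49. Among the antisense genes SDCBP2-AS1 fell by 1.15, SP2-AS1 by 0.81, THAP7-AS1 by 0.81 and PSMG3-AS1 by 0.68. MAP3K20-AS1 rose from 0.581, 0.587 and 0.664 CPM to 1.94, 1.61 and 1.79 CPM (1.54, edgeR's adjusted p = 9.16e-06), and the intronic ALMS1-IT1 from 0.258, 0.5 and 0.221 CPM to 1.16, 1.82 and 1.56 CPM (2.21, edgeR's adjusted p = 0.0037). SP2-AS1, THAP7-AS1, SDCBP2-AS1 and MAP3K20-AS1 overlap a gene on the other strand and ALMS1-IT1 lies within ALMS1, so reads of the overlapped genes may be counted in them. ALMS1-IT1 was the 1 call of 15 intronic transcripts (6.67% higher, against 1.78% of all genes).

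Many lncRNAs start next to the start of a coding gene on the other strand, and in these pairs the lncRNA could be compared with its neighbour. Of 479 tested lncRNAs with a coding start within 1 kb on the other strand 50 (10.4%) were lower and 1 (0.21%) was higher. The shares were 8.11% and 1.14% of all lncRNAs, and 25 to 36 were lower with any 1 library left out. Of their 479 coding partners 19 were lower (3.97%, against 4.31% of all genes) and 15 higher (3.13%, against 1.78%). Their median log2 FC was 0.04 against −0.24 for the lncRNAs. This comparison is not matched for abundance. The partners summed to 43861, 42592 and 43761 CPM in DMSO and the lncRNAs to 1048, 1025 and 1065 CPM. All coding genes at a mean log2 CPM of 4 to 6 also had a median of 0.04. For the 50 lncRNAs called lower the median was −0.75, and their partners had a median of 0.06 and a range of −0.59 to 0.46, with 4 lower and 3 higher. Where a pair overlaps, reads of both cannot be told apart in unstranded libraries. Of the lncRNAs without such a start 63 of 864 (7.29%) were lower.

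The sequence is given for the 3 most abundant of these 50 whose partner starts within the RefSeq promoter window. Both starts lie close in them because pairs were selected by that window. A more abundant lncRNA of the 50, WAC-AS1, starts 425 bases from its partner and was not eligible. The window runs from 250 bases before to 50 bases after the start of the lncRNA on its own strand (GRCh38.p14), and capitals mark the stretch from the first base of the partner, which is read on the other strand, to the first base of the lncRNA.
LINC00205, chr21:45287802-45288101, plus strand, partner POFUT2: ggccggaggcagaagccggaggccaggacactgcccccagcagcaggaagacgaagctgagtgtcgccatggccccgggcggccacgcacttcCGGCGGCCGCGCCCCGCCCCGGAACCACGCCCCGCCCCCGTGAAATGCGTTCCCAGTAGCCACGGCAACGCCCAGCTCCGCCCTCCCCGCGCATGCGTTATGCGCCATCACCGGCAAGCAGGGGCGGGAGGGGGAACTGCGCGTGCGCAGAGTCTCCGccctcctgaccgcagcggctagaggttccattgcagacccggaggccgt
HERPUD2-AS1, chr7:35694956-35695255, plus strand, partner HERPUD2: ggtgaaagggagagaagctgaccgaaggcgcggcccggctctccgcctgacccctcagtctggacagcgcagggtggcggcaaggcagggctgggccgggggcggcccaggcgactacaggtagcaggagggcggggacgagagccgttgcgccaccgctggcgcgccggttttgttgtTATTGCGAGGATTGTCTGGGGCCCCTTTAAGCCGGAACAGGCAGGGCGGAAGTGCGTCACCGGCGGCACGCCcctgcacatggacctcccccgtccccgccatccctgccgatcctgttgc
C2orf74-DT, chr2:61144926-61145225, minus strand, partner C2orf74: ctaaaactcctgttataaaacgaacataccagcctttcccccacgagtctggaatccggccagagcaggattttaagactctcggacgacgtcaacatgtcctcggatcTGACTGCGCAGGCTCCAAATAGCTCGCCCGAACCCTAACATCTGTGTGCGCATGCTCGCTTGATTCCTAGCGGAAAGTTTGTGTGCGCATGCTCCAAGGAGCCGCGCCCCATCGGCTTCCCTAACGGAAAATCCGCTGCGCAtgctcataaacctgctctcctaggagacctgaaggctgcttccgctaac
The capitals span 158, 72 and 142 bases with a GC content of 74.7%, 65.3% and 58.5%.

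The 3 pairs differed in what the partner did. LINC00205 went from 15.6, 16.1 and 14.7 CPM to 8.98, 8.03 and 8.19 CPM (log2 FC −0.88, SE 0.082, edgeR's adjusted p = 2.3e-06), while POFUT2, an O-fucosyltransferase, had 52.2, 57.8 and 54.2 CPM in DMSO and 52.6, 54.8 and 55.6 CPM with the low dose (−0.0099, SE 0.063, edgeR's adjusted p = 0.948). HERPUD2-AS1 went from 13.2, 12.1 and 13 CPM to 9.08, 8.65 and 8.1 CPM (−0.57, SE 0.096, edgeR's adjusted p = 0.00138), and HERPUD2 from 32.9, 32.1 and 31 CPM to 29.2, 30 and 29.6 CPM, which did not pass (−0.11, SE 0.15, edgeR's adjusted p = 0.738). C2orf74-DT went from 10.8, 11.1 and 10.5 CPM to 5.7, 6.37 and 6.3 CPM (−0.82, SE 0.11, edgeR's adjusted p = 0.000122). Its partner C2orf74 was one of the 4 that fell as well, from 8.35, 8.64 and 8.21 CPM to 5.66, 5.85 and 5.32 CPM (−0.58, SE 0.11, edgeR's adjusted p = 0.00236). C2orf74-DT and the 3 partners were chosen for description after their values were seen.

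**Figure D5:**
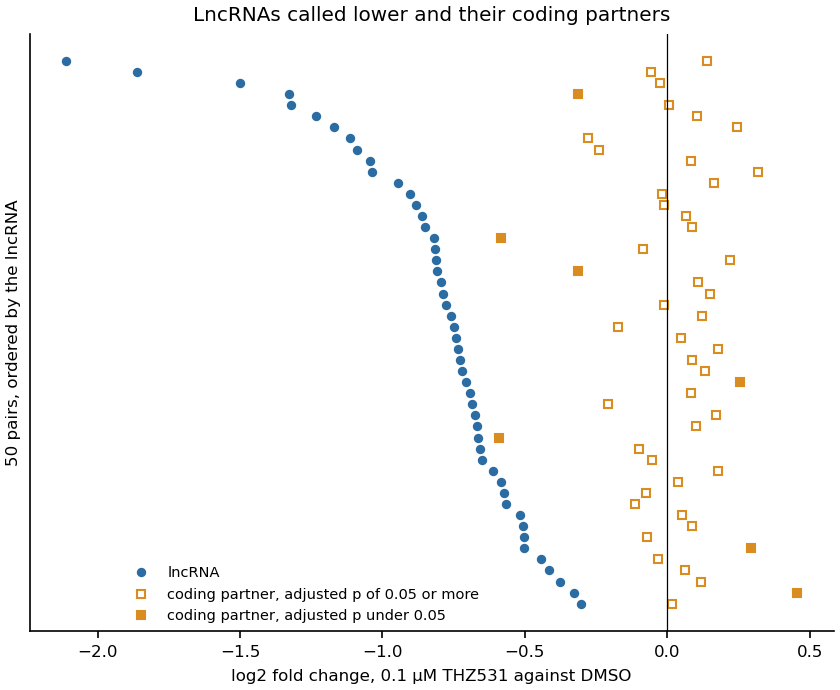
The log2 FC at 0.1 μM of the 50 lncRNAs called lower that start within 1 kb of a coding start on the other strand (circles) and of the coding partner (squares, filled where the adjusted p was under 0.05), 1 pair a line. The lncRNAs were chosen for lying left of 0, whereas the partners scatter between −0.59 and 0.46.

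By gene body length the share called lower was between 3.87% and 4.64% in all 6 classes, from under 5 kb to 300 kb and over, and the median log2 FC ran from 0.03 to −0.04. Among protein-coding genes the share was 2.82% under 5 kb and 4.61% at 30 to 100 kb. At 1 μM the median against DMSO was 0.43 for genes under 5 kb and −0.17 for those of 100 to 300 kb. By the canonical GENCODE transcript, 6.27% of 798 single-exon genes were lower, against 3.71% to 4.70% in the other classes, and 2.47% of transcripts under 1 kb were lower against 5.01% of those of 4 to 8 kb. Genes that overlap a tested gene on the other strand only were lower in 5.27%, and genes without overlap in 4.04%.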

How the data were processed

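The values were whole-number counts of reads per gene, deposited by the authors as 1 table for all 21 libraries. Per the labels, libraries were made from poly(A)-selected RNA, and the submitters' processing notes name the aligner HISAT2 2.1.0, the counter featureCounts, DESeq2 and the build GRCh38. The featureCounts version, its annotation and whether read pairs or ends were counted are not given in the sources used here. Total counts were 105036702 to 112229052 in the 6 libraries compared.

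Genes were kept with filterByExpr and scaled with TMM in edgeR 4.0.16 (R 4.3.3, limma 3.58.1), and 1 mean per treatment was fitted over all 21 libraries with the quasi-likelihood test. P-values were adjusted by Benjamini-Hochberg over 16036 genes, and a gene was called at an adjusted p under 0.05. CPM are on the TMM scale and log2 CPM carry a prior count of 2. The fits were tested on simulated data. The samples and 45 gene lists were chosen with earlier results of these data known. Named were the 15 largest falls and 15 largest rises among called genes with non-overlapping groups and a mean log2 CPM from 1, the 10 smallest p in each direction under the same limits, up to 6 called genes per list, and CDK12, CDK13, CCNK, HEXIM1 and ABCG2. TNFRSF10C, C2orf74-DT, C2orf74, POFUT2 and HERPUD2 were added after their values were seen. Names, coordinates and start sequences came from RefSeq (GRCh38.p14), which named 27741 of 28395 identifiers, and transcripts from GENCODE. Alternatives were DESeq2 1.42.0, glmTreat, other scalings and filters, fitting the 6 libraries alone, counts halved, a replicate block and leaving out each library. Counts come without molecular identifiers, and their precision is that of the spread between 3 libraries.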

Additional observations from a re-analysis of the deposited data

Results flagged for a closer look

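On the TMM scale, some genes called at 0.1 μM THZ531 lay on the other side of the DMSO mean in every 1 μM library. The difference between both doses was itself tested with edgeR. The doses share their DMSO libraries, so the values given are the direct log2 FC of 1 μM against 0.1 μM. Higher at 0.1 μM and lower at 1 μM were SHPK (−1.61), ACER2 (−1.24), TRIM13 (−2.29) and CDK12 (−1.53). TRIM13 had 11.8, 11.5 and 10.7 CPM at 0.1 μM and 2.68, 1.55 and 2.73 CPM at 1 μM, against 7.71, 6.1 and 6.83 CPM in DMSO. After scaling to mitochondrially encoded mRNAs the differences were −2.15, −1.79, −2.84 and −2.09.

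Lower at 0.1 μM and higher at 1 μM were IFT80 (1.02), KCNAB2 (1.15), SCN2A (1.05), SNAP25 (1.22) and SP2-AS1 (1.31). KCNAB2 had 8.48, 8.77 and 9.98 CPM at 0.1 μM and 20.1, 21.4 and 18.8 CPM at 1 μM, against 12.8, 15.3 and 14.4 CPM in DMSO. After scaling to mitochondrially encoded mRNAs the differences were 0.47, 0.60, 0.51, 0.69 and 0.77, and that of SCN2A did not pass (edgeR's adjusted p = 0.0818). That scaling moved the median difference between both doses over all genes by −0.55. Whether these 1 μM values still lay above DMSO under it was not tested.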

How the results depend on the processing

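Of the named genes called at 0.1 μM, 63 passed under every alternative other than glmTreat and 60 did not in at least 1, of which 4 were lost only when a library was left out. Among all genes, 240 were lower and 41 higher after scaling to mitochondrially encoded mRNAs, 1043 and 510 with the 6 libraries fitted alone, 190 higher with library size alone and 585 higher with DESeq2. Beyond a log2 FC of 1, 66 were lower and 13 higher with at least 10 counts in every library, and 2 and 0 with glmTreat. Leaving out 1 library gave 351 to 477 lower and 114 to 156 higher, and 72 to 101 and 15 to 20 beyond 1. Between 1 μM and 0.1 μM, 5100 genes were lower and 514 higher beyond 1 after mitochondrial scaling, 1860 were higher with upper-quartile scaling and 463 higher with at least 10 counts. CCNK and POFUT2, neither called, turned above 0 with DESeq2 size factors (0.0092 and 0.013) and the DESeq2 test (0.0096 and 0.014), and with 1 library left out CCNK ranged from −0.055 to 0.058 and POFUT2 from −0.042 to 0.031. The cause of these differences was not tested. Same-numbered DMSO and 0.1 μM libraries correlated at 0.652, −0.0789 and −0.495 in their deviations from the group means, and not every library correlated best with its own number. Deviations from a mean of 3 libraries depend on each other, so these values cannot settle whether the replicates were paired. A replicate block gave 726 lower and 326 higher genes, and 127 and 21 beyond 1. Among genes with a mean log2 CPM under −2, 1.54% were called lower, and changes there were hardly detectable at this depth.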
